A study of Danio rerio with 6 samples.

Results

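Neurofilament and axonal cytoskeleton genes were described in head messenger RNA of 3-day-old larvae of the zebrafish, Danio rerio. The members were the rows of the raw count table whose gene name was on a list of 10 names, and 9 of these names had a row among the 32520 genes. They were the neurofilament light genes nefla (ENSDARG00000057568) and neflb (ENSDARG00000012426) and the neurofilament medium genes nefma (ENSDARG00000021351) and nefmb (ENSDARG00000043697). The others were the growth cone gene gap43 (ENSDARG00000099744), the tau genes mapta (ENSDARG00000089314) and maptb (ENSDARG00000087616), the dendritic microtubule gene map2 (ENSDARG00000055052) and the stathmin gene stmn2a (ENSDARG00000033234). The name ina had no row, and the internexin genes of these tables, inaa and inab, are described with the other intermediate filaments. All 9 genes passed the filter on low counts, which kept 24765 genes.

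The mutant larvae carried y712, an allele of srrm4, on both chromosome copies, and wild-type siblings were the controls. Srrm4 is a splicing regulator that promotes inclusion of neural microexons, and the title of the series asks how far its mutation alters neural development. There were 6 libraries, 3 of each genotype, each with a replicate number from 1 to 3. The labels do not say whether a library came from 1 larva or a pool, or whether replicates came from separate clutches, so p-values measure only the spread between these samples, which may be technical.

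Neurofilaments are the intermediate filaments of neurons. Light, medium and heavy subunits, with internexin alpha or peripherin, assemble into the polymers that fill large axons and set their calibre. Microtubules run beside them. Tau binds microtubules mainly in axons and Map2 mainly in dendrites, while stathmins such as Stmn2 bind free tubulin dimers and act in growing axons. Gap43 is a membrane protein of growth cones and a standard label of axons that are being laid down or regrown.

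Total counts ranged from 52510621 to 98353600 in mutant libraries and from 75932582 to 101032166 in wild-type libraries. Both replicate 1 libraries stood apart from the other 4, in both genotypes. Markers of posterior body, hox groups 9 to 13, summed to 105.7 and 117.5 CPM (counts scaled to library size with TMM factors) in mutant and wild-type replicate 1, and to between 14.4 and 21.6 CPM in the other libraries. The 8 skeletal muscle markers summed to 42788 and 41824 CPM in mutant and wild-type replicate 1, and to between 7365 and 12344 CPM elsewhere. Of these 8, ttn.1 and myhz2 were instead lower in replicate 1. The 11 pan-neuronal markers summed to 1580 and 1624 CPM in mutant and wild-type replicate 1, and to between 3266 and 3601 CPM elsewhere, so neuronal transcripts were present in each head library. No row of these marker lists was at 0 in all libraries. Srrm4 itself had 843, 5249 and 6286 counts in mutant libraries and 954, 5500 and 6071 in wild-type libraries, so its gene-level count gives no check of the genotype labels.

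No member differed between mutant and wild-type heads past the test, which was edgeR's quasi-likelihood test with Benjamini-Hochberg adjustment over all tested genes at 0.05. The 4 neurofilament genes had slightly lower means in the mutant, by log2 fold changes of -0.09 to -0.14, and the 5 other members lay between -0.03 and 0.08. The same test called 0.0% of all genes. At an unadjusted p under 0.05 it had none of the 9 members, against 70 of 24765 genes (0.283%). Without a block, this test counts the replicate 1 difference as spread within each genotype, so its lack of calls says little about the members. With the replicate number as a block, which takes out differences shared by same-numbered libraries, edgeR again called 0.0% of genes and no member. At an unadjusted p under 0.05 that fit had 1 of the 9 members, nefmb, against 4.6% of all genes. DESeq2 and limma-voom without the block called 0 genes. With the block, limma-voom called 0 and DESeq2 called 18 (0.0727%), none of them a member. In bulk heads, fewer cells of a type and less RNA per cell cannot be told apart.

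**Figure D1:**
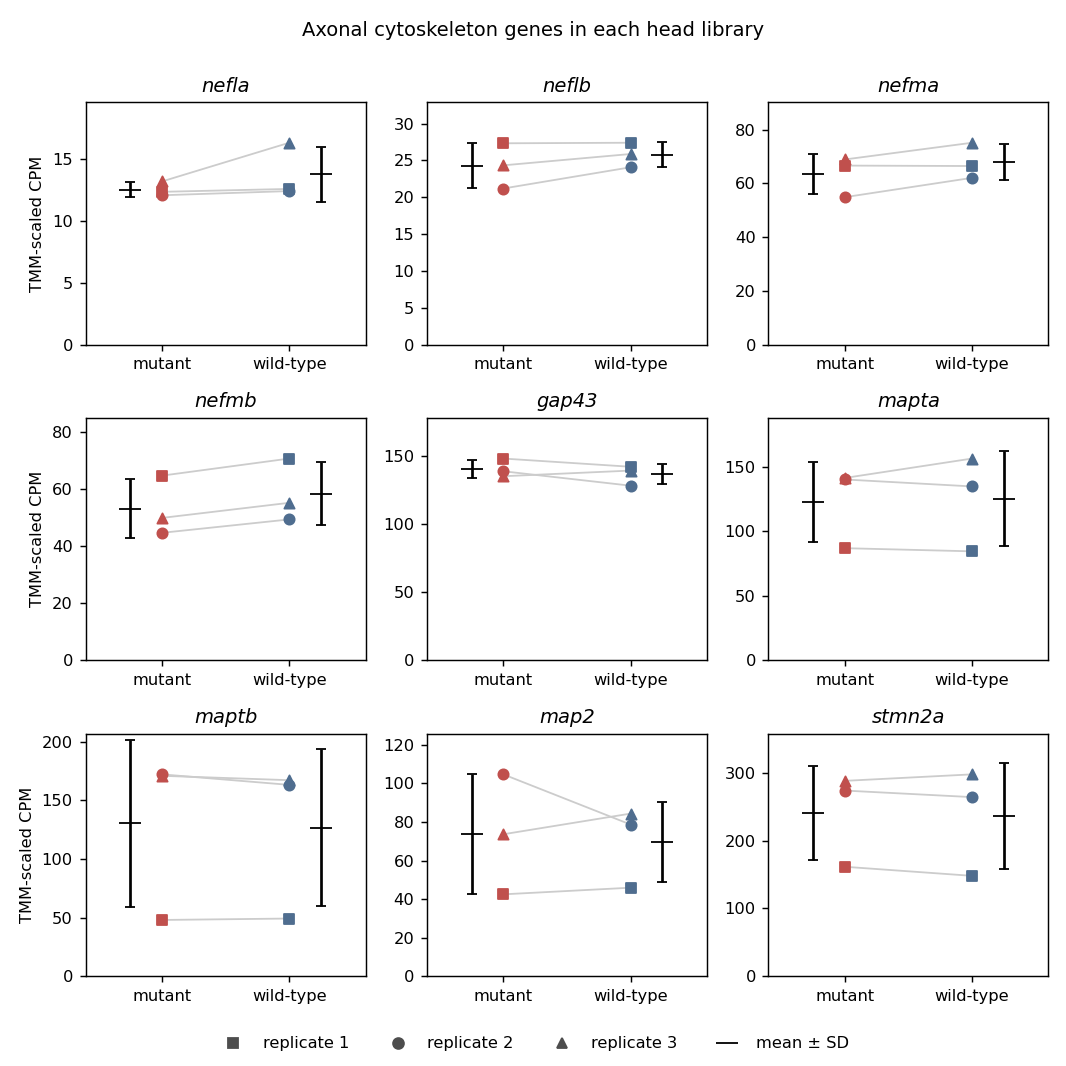
TMM-scaled CPM of each of the 9 genes in each library, with grey lines joining libraries of the same replicate number and black bars giving the mean ± SD of 3 libraries. The genotypes overlap for every gene, and replicate 1 (squares) is the lowest library of its genotype for mapta, maptb, map2 and stmn2a.

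Among the neurofilament genes, nefla, a light subunit gene, had 12.4, 12.1 and 13.2 CPM in mutant replicates 1, 2 and 3, against 12.6, 12.4 and 16.3 CPM in the wild-type replicates. Wild-type replicate 3 stood above the other 5 libraries, and the genotypes overlapped. The log2 fold change was -0.14 (SE 0.15, edgeR adjusted p 1), and 0.0050 without wild-type replicate 3. With the block it was -0.13 (SE 0.08, edgeR adjusted p 0.939).

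The second light subunit gene, neflb, had 27.3, 21.2 and 24.3 CPM in mutant replicates 1 to 3 and 27.4, 24.1 and 25.9 CPM in the wild-type ones. Replicate 1 was the highest library in both genotypes and was nearly equal between them. Neflb had a log2 fold change of -0.09 (SE 0.14, edgeR adjusted p 1), and 0.0033 without mutant replicate 2. With the block it was -0.09 (SE 0.05, edgeR adjusted p 0.939), and it ranged from -0.13 to -0.05 when 1 pair was left out.

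The medium subunit genes encode the neurofilament proteins whose long tails project from the filament. Nefma had 66.6, 54.8 and 68.9 CPM in mutant libraries, against 66.4, 62.0 and 75.1 CPM in wild-type libraries. The mutant was lower in pairs 2 and 3, by log2 ratios of -0.18 and -0.12, and the replicate 1 libraries differed by 0.0035. For nefma the log2 fold change was -0.10 (SE 0.15, edgeR adjusted p 1).

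Nefmb had 64.7, 44.7 and 49.9 CPM in mutant libraries and 70.7, 49.4 and 55.2 CPM in wild-type libraries. The mutant library was the lower of each pair by nearly the same amount, with log2 ratios of -0.13, -0.14 and -0.15, while replicate 1 lay above the rest in both genotypes. The log2 fold change was -0.14 (SE 0.21), and its 95% interval ran from -0.64 to 0.36. With the block the value was again -0.14 (SE 0.04), the interval ran from -0.23 to -0.04, and the test gave an unadjusted edgeR p of 0.0107 and an adjusted edgeR p of 0.939. Without the replicate 1 pair the blocked log2 fold change of nefmb was -0.14 (SE 0.06), and its interval then included 0, from -0.30 to 0.01. DESeq2 with the block gave nefmb -0.13 (SE 0.08), with an unadjusted p of 0.0832 and a DESeq2 adjusted p of 1.

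Of the 4 neurofilament genes, 3 (nefla, neflb and nefmb) were lower in the mutant in each of the 3 pairs, and no other member was. With library totals as the only scaling nefma joined them, since its pair 1 ratio turned to -0.0014. Over all tested genes 13.8% were lower in each pair and 13.1% were higher in each pair. Of the 10 marker lists, 2 also had a lower sum in the mutant in each pair (photoreceptors and motor neurons) and 2 a higher one (neural progenitors and epidermis). The summed level of the 6 photoreceptor markers had log2 ratios of -0.05, -0.22 and -0.22, and ranged from 752.4 to 1302 CPM in mutant and from 779.2 to 1516 CPM in wild-type libraries. That of the 9 motor neuron markers had log2 ratios of -0.13, -0.0094 and -0.05, with ranges of 182.5 to 256.1 CPM in mutant and 199.8 to 257.8 CPM in wild-type libraries. Isl1, also on the sensory and retinal ganglion list, made up a large part of that sum, at 94.5 to 121.5 CPM. Single genes did not all follow the sums. Phox2a had 24.5 and 24.6 CPM in mutant replicates 2 and 3, against 21.8 and 22.9 CPM in the wild-type ones. The photoreceptor gene crx had 184.2 CPM in mutant and 150.9 CPM in wild-type replicate 2. The ratios were 0.05, 0.06 and 0.03 for neural progenitors and 0.0089, 0.11 and 0.05 for epidermis. The pan-neuronal sum stood at -0.04, 0.11 and -0.10 and the sum of sensory and retinal ganglion markers at -0.0036, 0.08 and -0.0083. No marker with a row in the tables was at 0 in all libraries. The part of these cell types in the neurofilament values was not tested. The mutant and wild-type ranges overlapped for each of the 9 members, and they did not overlap for 2.04% of all tested genes. In the blocked fit the lower bounds for the mutant level of nefla, neflb, nefma and nefmb were 0.806, 0.858, 0.861 and 0.850 times wild-type. Without the block these bounds were 0.707, 0.747, 0.728 and 0.644 times wild-type.

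RefSeq annotation of another assembly (GRCz12tu) places nefla next to nefma, and neflb next to nefmb, with 0 protein-coding genes between the members of each couple. Each couple thus holds 1 light and 1 medium gene. Nefla had its lowest mutant to wild-type log2 ratio in pair 3 (-0.31), whereas nefma had its lowest in pair 2. Neflb was likewise lowest in pair 2 (-0.18), and nefmb was level across the pairs. Each of these ratios rests on 1 library per genotype, and whether neighbouring genes moved together was not tested.

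Gap43, the growth cone gene, was the steadiest member. It had 148.1, 138.8 and 135.1 CPM in mutant libraries, against 142.1, 128.2 and 139.3 CPM in wild-type libraries. The highest library exceeded the lowest by 1.16 times, the smallest such span among the members, and the genotypes overlapped. Gap43 averaged 140.7 ± 6.7 CPM in mutant and 136.5 ± 7.3 CPM in wild-type heads (SD, n = 3 each). The estimated log2 difference was 0.04 (SE 0.14, edgeR adjusted p 1). The blocked interval allowed a level between 0.959 and 1.11 times that of wild-type, and the interval without the block 0.822 to 1.29 times.

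The tau genes were similar between the genotypes. Mapta had 87.0, 140.2 and 141.4 CPM in mutant replicates 1, 2 and 3, and 84.6, 134.8 and 156.5 CPM in the wild-type replicates. Maptb had 48.0, 172.2 and 170.9 CPM in mutant libraries, against 49.2, 163.2 and 167.2 CPM in wild-type libraries. For both genes the replicate 1 libraries were far below the other 4, so that the spread within a genotype exceeded any difference between genotypes. The log2 fold change was -0.03 (SE 0.30) for mapta and 0.04 (SE 0.63) for maptb, and edgeR gave an adjusted p of 1 for both. Without the block the interval for maptb ran from 0.360 to 2.95 times wild-type. With the block the SE of maptb was 0.04, and the interval for its mutant level ran from 0.952 to 1.09 times wild-type. For mapta that interval ran from 0.909 to 1.07 times wild-type.

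Map2, a gene for the microtubule-associated protein of dendrites and cell bodies, was the least steady between pairs. It had 42.5, 104.7 and 73.6 CPM in mutant replicates 1, 2 and 3, against 45.9, 78.7 and 84.4 CPM in the wild-type replicates. The mutant was higher in pair 2 by a log2 ratio of 0.41 and lower in pairs 1 and 3, by -0.11 and -0.20. The log2 fold change was 0.08 (SE 0.38, edgeR adjusted p 1), and 0.04 (SE 0.13) with the block. Its blocked interval, from 0.805 to 1.31 times wild-type, was the widest of the members. Without the replicate 2 pair the blocked value was -0.16.

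Stmn2a, a stathmin gene of growing neurons, had 161.5, 273.9 and 288.2 CPM in mutant libraries, against 148.1, 264.2 and 297.7 CPM in wild-type libraries. The genotypes overlapped, and again both replicate 1 libraries were lowest. The log2 fold change was 0.03 (SE 0.35, edgeR adjusted p 1), and 0.04 (SE 0.04) with the block. The blocked interval for the mutant level of stmn2a ran from 0.959 to 1.11 times wild-type. Without the block it ran from 0.570 to 1.82 times wild-type, so the narrower range rests on the pairing by replicate number.

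**Figure D2:**
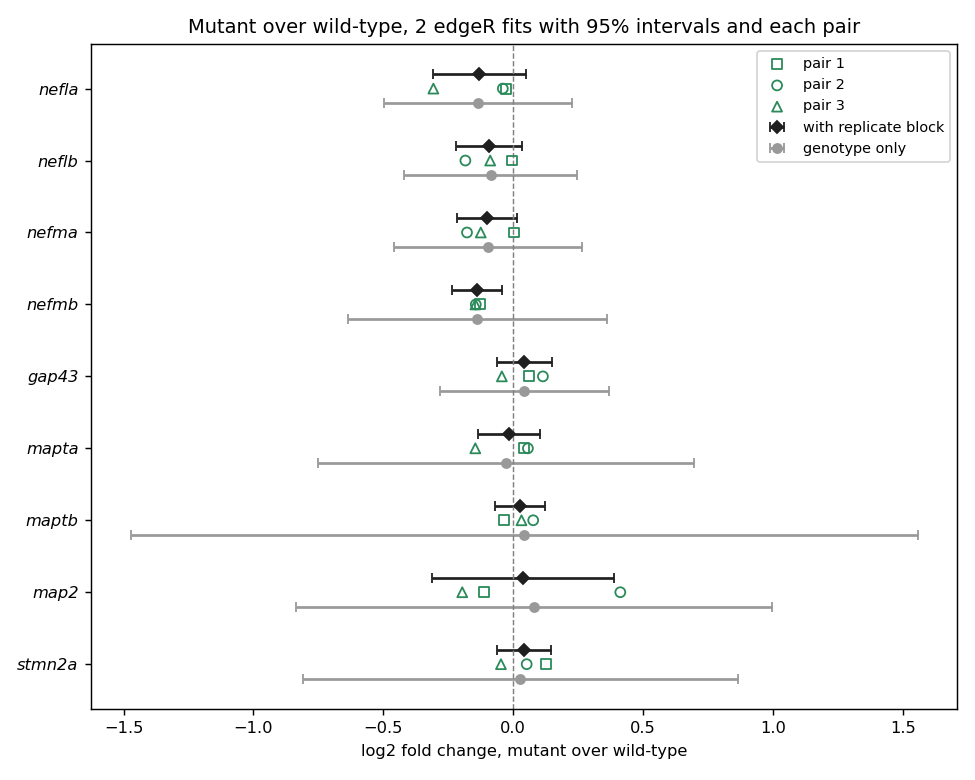
Log2 fold change of mutant over wild-type for each gene, as the edgeR estimate with its 95% interval from the fit with the replicate block (black diamonds) and from the fit on genotype only (grey circles), with the log2 ratio of each same-numbered pair (green outlines). Nefmb has its 3 pairs close together near -0.14, whereas map2 spreads from -0.20 to 0.41.

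The members differed among themselves when replicate 1 was set against replicates 2 and 3, a description with no test because these libraries were known to stand apart. Maptb, map2, stmn2a and mapta were lower in replicate 1 in both genotypes. On the mean of the genotypes, maptb (-1.79) and map2 (-0.95) lay below the 10th percentile of all tested genes, at -0.87. Stmn2a (-0.86) and mapta (-0.74) lay inside the range between the 10th and 90th percentiles, as the neurofilament genes and gap43 did. Maptb was the lowest, at log2 ratios of -1.84 in mutant and -1.75 in wild-type heads, that is 3.57 and 3.36 times lower in replicate 1. Only 1.71% of tested genes had a lower mean ratio than maptb. Map2 stood at -1.07 and -0.83, stmn2a at -0.80 and -0.92, and mapta at -0.69 and -0.78 in mutant and wild-type heads. Among the neurofilament genes nefla was lowest, at -0.03 in mutant and -0.19 in wild-type heads, and nefmb highest, at 0.45 and 0.44. Gap43 stood at 0.11 and 0.09.

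Nefmb was the member highest in replicate 1, with 77.7% of tested genes below it. The median over all tested genes was -0.02, with the 90th percentile at 0.82. Library totals as the only scaling moved the all-gene median to -0.35, and neflb, nefma and gap43 then turned to mean values of -0.13, -0.30 and -0.22, all above that median. Nefmb remained positive there at 0.12, and maptb stood at -2.12.

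**Figure D3:**
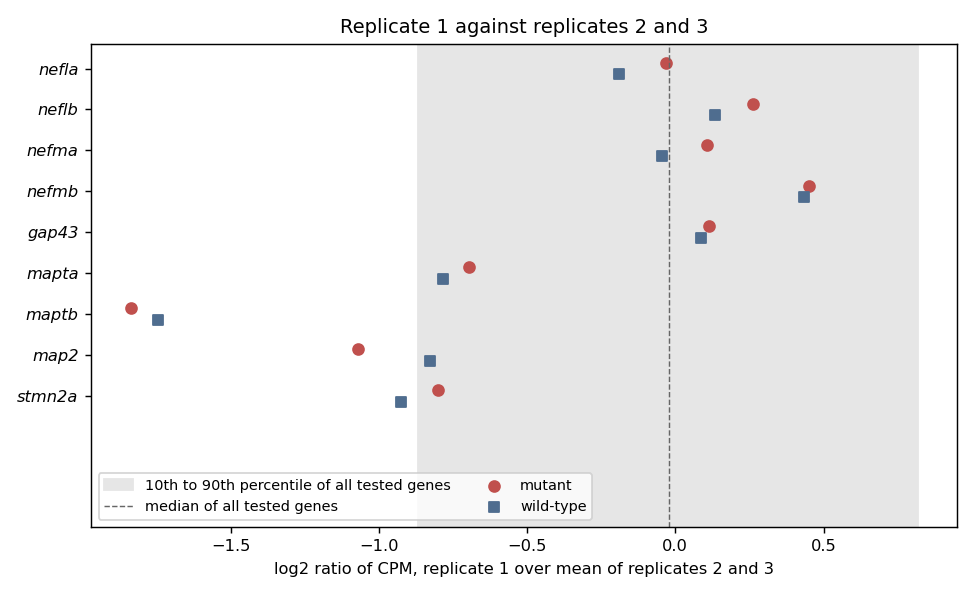
Log2 ratio of CPM in replicate 1 over the mean of replicates 2 and 3, per gene and genotype, with the 10th to 90th percentile range of all tested genes shaded and their median dashed. Maptb lies far below the shaded range in both genotypes, and the 4 neurofilament genes and gap43 lie inside it.

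Markers moved with this difference. The pan-neuronal markers were lower in replicate 1 for 10 of 11 genes, with a median log2 ratio of -0.81. The sensory and retinal ganglion neuron markers were lower for 12 of 13 genes (median -0.42), and their summed level was 275.6 CPM in mutant and 276.3 CPM in wild-type replicate 1, against 396.6 to 426.4 CPM elsewhere. The markers of cranial and spinal motor neurons were lower for 6 of 9 genes (median -0.26). The other 3, mnx1, mnx2a and mnx2b, were higher, at 0.84, 1.01 and 1.26, with at most 4.69 CPM in a library. Isl1 is on both this list and the sensory and retinal ganglion list. Skeletal muscle markers were higher for 6 of 8 genes and posterior hox genes for 16 of the 16 past the filter. The muscle markers that went the other way were ttn.1, at -0.85, and myhz2, at -0.60. Photoreceptor markers were lower in replicate 1 for 6 of 6 genes (median -0.69) and neural progenitor markers for 7 of 8 (median -0.36). Epidermis markers were higher for 6 of 6 genes (median 0.82) and blood markers for 7 of 7 (median 1.27). Glia and myelin markers were lower for 5 genes and higher for 4. The part of these tissues in the difference between replicate 1 and the others was not tested. The labels name a Qiagen and a Zymo kit for RNA isolation, and which libraries had which kit is not given in the sources used here.

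Ratios of counts within a library do not depend on scaling. The count of mapta over maptb was 1.81, 0.815 and 0.827 in mutant replicates 1, 2 and 3, against 1.72, 0.826 and 0.936 in the wild-type replicates. The ratio was thus higher in replicate 1 than in the others in both genotypes, in counts not corrected for transcript length. The count of nefmb over nefma was 0.972, 0.815 and 0.725 in mutant libraries and 1.06, 0.796 and 0.735 in wild-type libraries, with replicate 1 again the highest. The count of neflb over nefla was 2.21, 1.75 and 1.84 in mutant libraries and 2.17, 1.94 and 1.58 in wild-type libraries. Neflb and nefmb, which lie side by side, thus both had their highest count relative to the other copy in replicate 1, within each genotype.

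The summed count of the 4 neurofilament genes over that of mapta, maptb and map2 was 0.963, 0.318 and 0.405 in mutant replicates 1, 2 and 3, against 0.986, 0.393 and 0.423 in the wild-type replicates. It was lower in the mutant in each pair, by less than it differed between replicate 1 and the others. No test was run on these ratios.

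**Figure D4:**
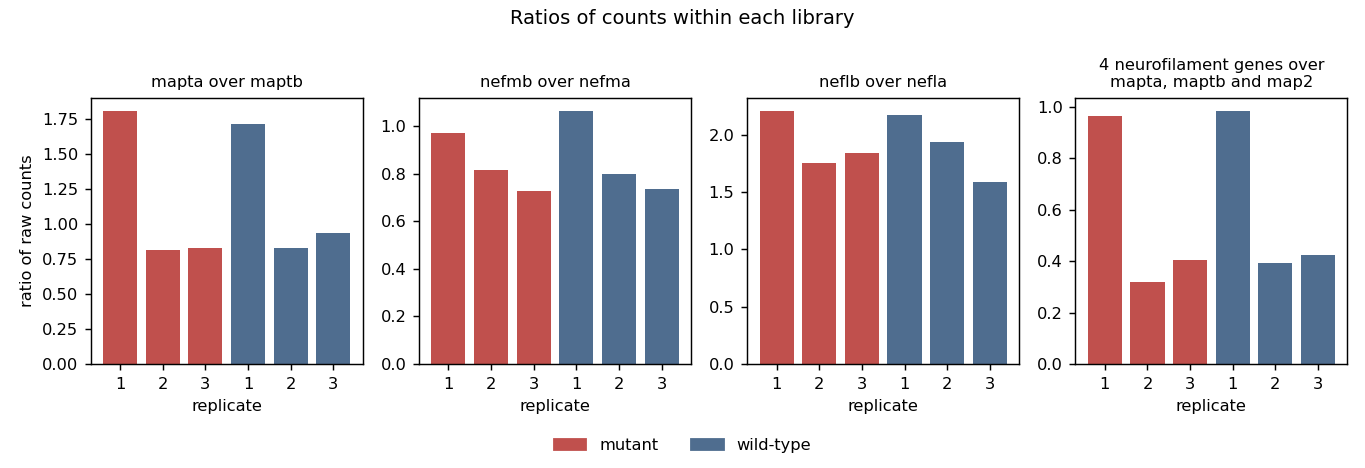
Ratios of raw counts within each library for 3 couples of related genes and for the summed neurofilament genes over mapta, maptb and map2, with bars for mutant replicates left of wild-type replicates. The mapta to maptb ratio is 1.81 and 1.72 in the replicate 1 libraries and below 1 in the other 4.

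Among 9 further lists of cytoskeletal genes, 116 of 129 names had a row, and 3 of them (ank1a, ank3b and kif5ba) had more than 1, which makes 119 genes. None of these 119 genes passed edgeR in either direction, with or without the block (0.0% of all genes called in each). At an unadjusted p under 0.05 the blocked fit had 12 of these 119 genes, against 1138 of 24765 genes (4.6%). The lists thus had the larger share, a difference that was not tested. The all-gene share was not matched to the lists for expression level, and the lists were chosen with earlier results known. List medians of the blocked log2 fold change lay between -0.06 and 0.03, beside -0.0010 over all tested genes. The log2 fold changes below are from that fit, and every gene named had an edgeR adjusted p of at least 0.939.

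Other intermediate filament genes had 6 of 7 members below 0 (median -0.06). Inaa, an internexin gene, had 7.0, 8.7 and 12.1 CPM in mutant libraries, against 7.30, 11.5 and 14.9 CPM in wild-type libraries. The mutant was the lower of each pair, while the genotypes overlapped, and the log2 fold change was -0.27 (SE 0.08). Inab, the other internexin gene, had 40.1, 48.9 and 52.3 CPM in mutant libraries and 43.0, 50.8 and 53.8 CPM in wild-type libraries. It too was the lower of each pair, at -0.07 (SE 0.04), and was named here for its likeness to the missing name. Peripherin (prph), also named after its value was seen, stood at -0.06, and the vimentin-like gene viml at -0.24 (SE 0.20).

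Of the other microtubule-associated genes, 13 were below 0 and 9 above (median -0.02). Tppp2, of a family that promotes tubulin polymerization, stood at -0.21 (SE 0.07), and tppp, with at most 0.458 CPM in a library, at -0.61 (SE 0.54). In replicate 1 against the others the median of this list was -0.48, with 18 of 22 genes lower, and map1aa was the lowest at -1.95. Map1aa, a gene for a microtubule-associated protein of neurons chosen after its value was seen, had 59.5, 223.5 and 245.1 CPM in mutant libraries, against 62.8, 225.0 and 252.5 CPM in wild-type libraries. That is a drop of the same kind as that of maptb.

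The other stathmin genes had 2 members below 0 and 4 above, with stmn4 at -0.09 and stmn3 at -0.08. Stmn2b, the second stmn2 gene, was also picked after its value was seen. It had 154.6, 168.7 and 159.3 CPM in mutant libraries and 156.2, 143.4 and 174.1 CPM in wild-type libraries. Its replicate 1 ratio was -0.05, beside a mean of -0.86 for stmn2a, so the 2 copies differed there. Of the 14 tubulin genes, 6 were below 0 and 8 above, with tubb1 at -0.39 (SE 0.17) and tubb2 at -0.06, and their replicate 1 median was 0.24.

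The collapsin response mediators, which act on microtubules in growth cones, had 2 genes below 0 and 4 above (median 0.0072). Crmp1 stood at -0.10 (SE 0.04) and dpysl4 at -0.04. All 6 of them were lower in replicate 1, with a median of -0.86. Among growth cone and axon surface genes, marcksl1b and marcksa, which encode membrane proteins that bind actin, stood at 0.10 (SE 0.03) and 0.13 (SE 0.05). Both were higher in the mutant in each pair, as 4 of 17 genes of that list were. In the blocked fit 6 genes of that list were below 0 and 11 above.

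Of the axonal transport genes, 13 were below 0 and 8 above. The kinesin heavy chains kif5ab and kif5ba (ENSDARG00000103394) stood at -0.25 (SE 0.07) and -0.11 (SE 0.05). Kif5ab had 5.70, 9.18 and 13.95 CPM in mutant libraries, against 6.75, 11.8 and 15.4 CPM in wild-type libraries, and was the lower of each pair. The spectrin and ankyrin list had 8 genes below 0 and 5 above, and its ankyrin gene ank3b (ENSDARG00000077582) was at -0.10. Both kif5ba and ank3b share their name with another identifier, so reads could be split and these values are uncertain. Among the kinases that phosphorylate tau and neurofilaments and their activators, 6 genes were below 0 and 7 above (median 0.0041). Cdk5r1b, an activator of Cdk5, stood at -0.12 (SE 0.05) and mark4a, a microtubule affinity kinase gene, at -0.06.

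The 5 genes most like the members were those of at least 10 CPM whose log2 CPM had the highest Pearson r with the mean standardized profile of the 9 members. Over the 6 libraries, which share the replicate 1 difference, they were zgc:101577 (r = 0.991), rims2a (0.981), si:ch211-113d22.2 (0.966), prrt1 (0.962) and npdc1a (0.953). Rims2a, a gene of the active zone of synapses, had 25.1, 25.9 and 29.1 CPM in mutant libraries, against 25.5, 27.0 and 33.1 CPM in wild-type libraries. Of the 12592 genes compared, 53 had r over 0.9. All 5 were highest in wild-type replicate 3, as nefla, nefma, mapta and stmn2a were. They were picked for likeness to the mean profile of the members, so this shared peak is no separate result. The members were not alike themselves: r with their own mean profile was 0.977 for nefla, 0.735 for nefma and 0.124 for neflb, and -0.13 for nefmb.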

How the data were processed

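The deposited tables give raw counts for Ensembl genes, and, also from the authors, a second table of normalized signal, which equals the counts divided by 1 size factor per library within 0.164. The submitters' processing notes name STAR 2.7.3, featureCounts 1.6.4, DESeq2 and the build GRCz11, with no role for each. The strand setting is not given in the sources used here. Tests ran on the raw counts in edgeR 4.0.16 (R 4.3.3), with TMM scaling, filterByExpr, the robust quasi-likelihood F test, 2-sided, and genotype as the only term. The normalized signal entered 1 alternative, limma 3.58.1 on log2(value + 1). Other alternatives were the replicate block, DESeq2 1.42.0, limma-voom, other scalings, filters and left-out libraries.

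Replicate numbers come from the labels. Deviations from genotype means of same-numbered libraries correlated across genes at 0.863, 0.579 and 0.744, so they were treated as pairs. Mutant replicate 3 with wild-type replicate 2 (0.418) and mutant replicate 2 with wild-type replicate 3 (0.365) were also positive. Since replicate 1 stood apart in both genotypes, replicates 2 and 3 deviate the same way under any numbering. These correlations are thus weak grounds for pairing 2 with 2 and 3 with 3. No 2 libraries were duplicates (chi-square per gene at least 4.78). The fewest counts of a member in a library were 558, where the counting error is 4.23%. Levels per transcript length were not compared between genes, as no transcript lengths were at hand. The ratios of counts within a library are not corrected for length, so they do not show which gene had more transcripts. No sequences are shown.

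All members were named, with up to 2 genes per list, those of smallest p in the fit on genotype only, and the 5 most alike. Prph, stmn2b, inab and map1aa fall outside this rule and were named after their values were seen. One gene that this rule picks is not reported here. Members and lists were chosen with earlier results of these data known.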

Additional observations from a re-analysis of the deposited data

How the results depend on the processing

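No member passed in any of the 21 alternative fits. The count of genes called was 0 in the fit with the replicate block in edgeR and 18 in DESeq2 with the block, and ranged from 0 to 2 when 1 library or 1 pair was left out. With the block no list gene or member was called, so it changed no other call. The count of members without overlap between genotypes ranged from 0 to 1 over the left-out libraries. It was 1 (nefla) without mutant replicate 3, 1 (maptb) without mutant replicate 1, and 1 (maptb) without the replicate 1 pair, an alternative chosen after the data were seen. Genotypes separate more easily with fewer libraries, and the share of all tested genes was not taken for these smaller sets. The 2.04% given above holds for all 6 libraries, so these counts are no result about nefla or maptb. The median replicate 1 ratio of the members, -0.11, became -0.44 with library totals only, which also lowers the all-gene median. Maptb turned to -0.0040 in limma-voom. With libraries left out, the log2 fold change of nefla ranged from -0.20 to 0.0050, of neflb from -0.18 to 0.0033, of nefma from -0.16 to -0.0016, of nefmb from -0.30 to 0.023 and of gap43 from 0.00053 to 0.09. Mapta ranged from -0.24 to 0.17, maptb from -0.34 to 0.44, map2 from -0.26 to 0.36 and stmn2a from -0.22 to 0.25. Fits without 1 library have no block and leave the replicate 1 difference unbalanced between genotypes. Under the block without 1 pair, mapta turned to 0.052 without pair 3, map2 to -0.16 without pair 2, and nefmb stayed between -0.14 and -0.13. Counting error reached 4.23% for nefla in the library with its fewest counts. The coefficient of variation of nefla was 4.63% over mutant and 16.0% over wild-type libraries.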
